A study of Mus musculus with 12 samples.

Results

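Mouse cells at Stage 2 of reprogramming were compared with cells at Stage 1 by ATAC-seq, in which a transposase inserts sequencing adapters where DNA is accessible. The comparison was drawn by library title: 3 Stage 2 libraries against 3 Stage 1 libraries, 6 of the 12 libraries of the series. The other 6, from mouse embryonic fibroblasts (MEF) and established induced pluripotent stem cells (iPSC), entered the statistical model and serve as end points. Cells of every group had a mixed C57BL/6 x 129 background and were harvested in the course of 3c enhanced reprogramming. The labels name neither its agents nor the way the factors were delivered. Stage 1 cells are labelled day 6 and Stage 2 cells day 6 + 4, and both groups, like the iPSC but not the unsorted MEF, were sorted as Oct4-GFP+, that is, for green fluorescence reporting on Oct4, which Pou5f1 encodes. Both groups are therefore the reporter-positive share of a culture, and the other cells were not measured here. The labels do not say whether libraries of a group came from separate cultures or animals, so every p-value measures the spread between these libraries, which may be technical.

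Reprogramming of fibroblasts passes through loss of the somatic program, gain of early pluripotency genes and a slower completion of the pluripotency network. Accessible promoters and distal enhancers are where transcription factors bind, so ATAC-seq shows which regulatory DNA is in use. In the mouse, naive pluripotent cells resemble the preimplantation epiblast and use Esrrb, Zfp42 and Dppa5a, whereas Otx2, Fgf5, Sox3 and the Zic genes belong to the later, formative or primed epiblast.

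The Stage 1 libraries held 14310290 to 18859828 reads and the Stage 2 libraries 25105948 to 26918384, of which 1065108 to 1531153 and 1390786 to 1735012 fell in the 115000 regions counted. The share of reads in regions was 7.36, 7.44 and 8.12% in the Stage 1 libraries and 6.91, 5.87 and 5.31% in the Stage 2 libraries. Judged by reads outside the regions, background made up an expected 30.6% ± 1.75 of the in-region reads at Stage 1 and 39.9% ± 5.56 at Stage 2 (SD, n = 3 each). Levels below are CPM, reads scaled to a normalised in-region total of 1000000, each ± the SD of 3 libraries. Read counts themselves are not scaled, and the Stage 2 libraries were deeper. With all reads of a library as its size instead, the median log2 change of the tested regions moved from 0.01 to -0.30. Rises and falls below are relative to that median. Which scaling is nearer to accessibility per cell was not tested. In bulk libraries fewer cells with an open site and a weaker signal per cell cannot be told apart. The 7 pluripotent markers were all above 2 times their expected background at both stages, and their summed level was 690 to 740 CPM at Stage 1, 908 to 933 at Stage 2 and 183 to 204 in MEF. The 8 fibroblast markers summed to 267 to 315 CPM at Stage 1 and 299.97 to 351 at Stage 2, against 705 to 724 in MEF. Background would give 165 CPM at Stage 1 and 222 at Stage 2, and only Col1a1 was above 2 times background at Stage 2. The summed levels of the listed markers of blood (107 to 120 CPM, then 121 to 130), endothelium (117 to 140, then 141 to 154), primitive endoderm (137 to 171, then 205 to 214) and trophectoderm (225 to 277, then 235 to 253) had no marker at 0, and their part in the results was not tested. Their expected background at Stage 1 and then Stage 2 was 47.1 and 63.3 CPM for blood and 60.6 and 81.5 for endothelium. It was 43.7 and 58.8 CPM for primitive endoderm and 57.3 and 77.0 for trophectoderm.

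Accessibility was remodelled in both directions between the stages. Of 71069 regions tested, 7650 (10.8%) passed an adjusted p of 0.05 in edgeR's quasi-likelihood test: 3653 rose (5.14%) and 3997 fell (5.62%). Rises had a median size of 1.44 on the log2 scale, 3102 of them at least 2-fold and 639 at least 4-fold. Falls had a median size of 1.1, with 2428 at least 2-fold and 208 at least 4-fold. Rising regions started low, at a median of 5.28 CPM at Stage 1, and reached 14.9 CPM at Stage 2, with 94.0% of them above 2 times the expected background at Stage 2. The same regions had a median of 1.33 CPM in MEF and 12.3 CPM in iPSC. Falling regions went from a median of 22.7 CPM at Stage 1 to 9.85 CPM at Stage 2, beside 3.94 CPM in MEF and 10.6 CPM in iPSC. With all reads as library size, 834 of 99151 regions rose (0.841%) and 3780 fell (3.81%), 4614 in all (4.65%), so 18.1% of calls were rises in place of 47.8%. DESeq2 called 1718 rises and 1557 falls. The libraries of the stages did not overlap at 28% of the tested regions, 14.0% each way, and at none of the regions below whose reads are given did their CPM overlap.

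**Figure D1:**
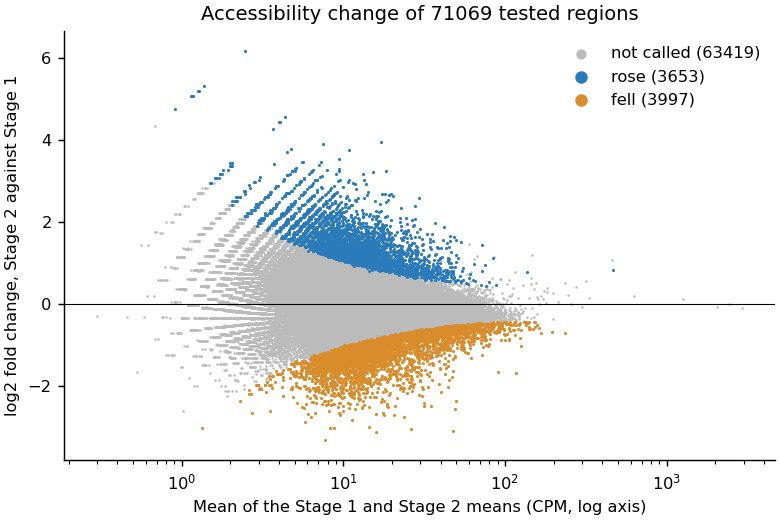
Each point is 1 of the 71069 tested regions, with the mean of the Stage 1 and Stage 2 levels (CPM, log axis) against the log2 fold change of Stage 2 over Stage 1. Blue points rose (3653), orange points fell (3997) and grey points were not called; rises have a median size of 1.44 and falls of 1.1 on the log2 scale.

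Rises lay more often between genes, that is outside genes and over 1 kb from their ends, and falls more often within 1 kb of gene ends. Regions within 1 kb of either end of a protein-coding gene made up 20.6% of the tested regions, 9.20% of the rises (336) and 25.1% of the falls (1002). Regions between genes made up 39.8% of the tested regions, 52.9% of the rises (1932) and 38.1% of the falls (1523), and the remaining 1385 rises and 1472 falls lay inside genes. The share of in-region reads near gene ends was 37.8, 35.5 and 36.6% in the Stage 1 libraries and 34.7, 33.9 and 32.9% in the Stage 2 libraries. All Stage 2 libraries were below all Stage 1 libraries (two-sided exact permutation p = 0.1, the smallest that 3 against 3 allows). With the expected background subtracted, the means were 44.9% ± 1.88 and 44.6% ± 1.02 (SD, n = 3 each) and the libraries overlapped.

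Fewer start sites were called as rises than as falls. These counts were not corrected for background, which was higher at Stage 2. RefSeq windows of 300 bp around annotated starts (build GRCm38.p6, the assembly of mm10) overlapped 10953 tested regions by at least 150 bp, of which 184 rose (1.68%) and 871 fell (7.95%). The median observed-over-expected CpG ratio was 0.53 for the 217 windows on rising regions, 0.78 for the 1117 on falling regions and 0.77 for all 13802 windows on tested regions. A ratio under 0.4 was found for 38.2% of the rising, 12.6% of the falling and 12.1% of all these windows. A letter search on both strands found the AP-1 motif TGANTCA in 10.6% of rising, 4.66% of falling and 5.08% of all these windows. The OTX motif GGATTA stood in 10.1, 5.19 and 4.99% of rising, falling and all these windows, and the E-box CAGGTG of ZEB factors in 26.3, 16.7 and 18%. The KLF motif GGGNGTGGC stood in 4.61, 10.2 and 9.30% in the same order. In the whole table of 32544 windows, whose median CpG ratio is 0.39, the shares of these 4 motifs were 7.79, 7.06, 20.3 and 5.78%. Of the 16 motifs searched, these 4 differed most, in percentage points, between rising and falling windows. The GRHL motif AACNNGTT came next, at 4.61 and 2.95%, and the TEAD motif GGAATG stood in 10.6 and 11.2%. The AP-1 share of rising windows rests on 23 of 217 windows, which lie on 184 regions. The shares describe letters and not bound sites, and windows that differ in CpG content differ in other letters too.

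Among the 10 named protein-coding genes with the largest rise at a start site, taken where the libraries of the stages did not overlap, a rule set after the values were seen, were Sohlh2, D1Pas1 and Cyct, genes known from the germline. The region at Sohlh2, a transcription factor of early germ cell differentiation, held 2, 0 and 2 reads in the Stage 1 libraries and 14, 11 and 10 in the Stage 2 libraries. It was at 1.09 CPM ± 0.969 against 7.95 ± 0.747 (SD, n = 3 each), where background would give 1.51 and 1.91 CPM. Its log2 change was 2.71 ± 0.64 (SE; adjusted p = 0.00173). At D1Pas1, a testis RNA helicase gene derived from the X-linked Ddx3x, reads went from 6, 13 and 7 to 56, 46 and 37 (log2 change 2.05 ± 0.31, adjusted p = 4.8e-07). At Cyct, the testis form of cytochrome c, they went from 2, 1 and 7 to 22, 23 and 11 (2.11 ± 0.46, adjusted p = 0.000618). All Stage 2 libraries lay above all Stage 1 libraries at these starts, which held 9.89, 32.1 and 19.5 CPM in iPSC and under 1 CPM in MEF. The starts of Rpl10l, a testis copy of a ribosomal protein gene, and of Ldhal6b, a lactate dehydrogenase-like gene, rose by 1.91 ± 0.37 and 1.95 ± 0.32. Zfp936, Jade1 and Otx2 (2.11 ± 0.28, 1.83 ± 0.39 and 1.82 ± 0.39) were also among the 10 and, like the 5 above, kept the call with each library left out. Gpat2 (1.82 ± 0.45) lost it without Stage 1 replicate 3 (adjusted p = 0.139). Hus1b (1.89 ± 0.49) lost it without Stage 1 replicate 3 (0.148) or Stage 2 replicate 3 (0.163), and neither was called with all reads as library size (0.0611 and 0.0605). D1Pas1 and Rpl10l have close copies elsewhere in the genome, so reads over the copied part may be split between them.

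The 250 bases before the start of 3 of these genes are given because their regions were low at Stage 1 and open at Stage 2. They are from RefSeq, build GRCm38.p6, 5′ to 3′ on the gene's strand. Capitals would mark a match of a searched motif, and none of the 16 motifs searched was found in these 3.
Sohlh2 (chr3:55181794-55182043, plus strand): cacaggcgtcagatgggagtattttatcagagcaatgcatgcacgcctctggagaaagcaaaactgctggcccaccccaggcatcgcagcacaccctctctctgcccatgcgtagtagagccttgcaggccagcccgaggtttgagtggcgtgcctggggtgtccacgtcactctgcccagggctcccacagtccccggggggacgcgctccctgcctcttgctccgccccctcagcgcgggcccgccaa
D1Pas1 (chr1:186967166-186967415, plus strand): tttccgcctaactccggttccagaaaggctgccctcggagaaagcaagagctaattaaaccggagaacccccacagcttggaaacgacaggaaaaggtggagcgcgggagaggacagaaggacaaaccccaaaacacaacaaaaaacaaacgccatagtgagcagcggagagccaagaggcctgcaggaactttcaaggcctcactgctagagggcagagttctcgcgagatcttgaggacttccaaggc
Cyct (chr2:76360454-76360703, minus strand): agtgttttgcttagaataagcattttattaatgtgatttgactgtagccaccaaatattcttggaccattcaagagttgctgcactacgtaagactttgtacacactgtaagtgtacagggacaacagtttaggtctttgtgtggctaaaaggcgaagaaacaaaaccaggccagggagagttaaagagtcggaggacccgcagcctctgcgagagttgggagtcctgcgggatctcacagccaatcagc

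By the same rule the largest falls at start sites were at Them5, a thioesterase gene, and at a start annotated for Aebp2, a cofactor of Polycomb repressive complex 2. The Aebp2 region held 50, 52 and 58 reads in the Stage 1 libraries and 28, 15 and 13 in the Stage 2 libraries, that is 47.2 CPM ± 5.99 against 12.5 ± 4.4 (SD, n = 3 each). Its log2 change was -1.87 ± 0.25 (SE; adjusted p = 2.28e-08), and it held 3.77 CPM in MEF and 9.09 CPM in iPSC. The Them5 region went from 15, 18 and 32 reads to 7, 8 and 5 (log2 change -2.03 ± 0.38, adjusted p = 5.53e-05), with 1.07 CPM in MEF and 3.89 CPM in iPSC. Among the 4 groups both were high at Stage 1. Mid1, an X-linked ubiquitin ligase gene, went from 15, 17 and 26 reads to 11, 2 and 8 (-1.80 ± 0.38, adjusted p = 0.000461). It was also low in MEF and iPSC (0.831 and 8.50 CPM against 16.7 at Stage 1). Nudt16, a nucleotide hydrolase gene, was open in MEF (55.2 CPM) and at Stage 1 (59.3 CPM) and lower at Stage 2 (19.9 CPM), a log2 change of -1.56 ± 0.21. The sequences before the starts of Aebp2 and Them5 are given for contrast with the opened starts, since their windows have CpG ratios of 0.23 and 0. These are not typical of falls, as the median ratio was 0.78 for falling and 0.53 for rising windows. Capitals mark a match of the TEAD motif GGAATG on either strand, found in 14.6% of all windows.
Aebp2 (chr6:140622413-140622662, plus strand): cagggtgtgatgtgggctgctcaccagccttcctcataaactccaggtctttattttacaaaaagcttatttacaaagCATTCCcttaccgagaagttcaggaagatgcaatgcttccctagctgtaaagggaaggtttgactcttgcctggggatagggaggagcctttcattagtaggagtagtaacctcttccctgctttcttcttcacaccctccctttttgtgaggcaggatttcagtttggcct
Them5 (chr3:94341849-94342098, plus strand): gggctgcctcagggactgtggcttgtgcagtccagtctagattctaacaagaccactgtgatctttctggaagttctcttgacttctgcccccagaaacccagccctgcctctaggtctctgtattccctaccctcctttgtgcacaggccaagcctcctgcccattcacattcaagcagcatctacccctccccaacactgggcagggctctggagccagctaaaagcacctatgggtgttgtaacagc

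**Figure D2:**
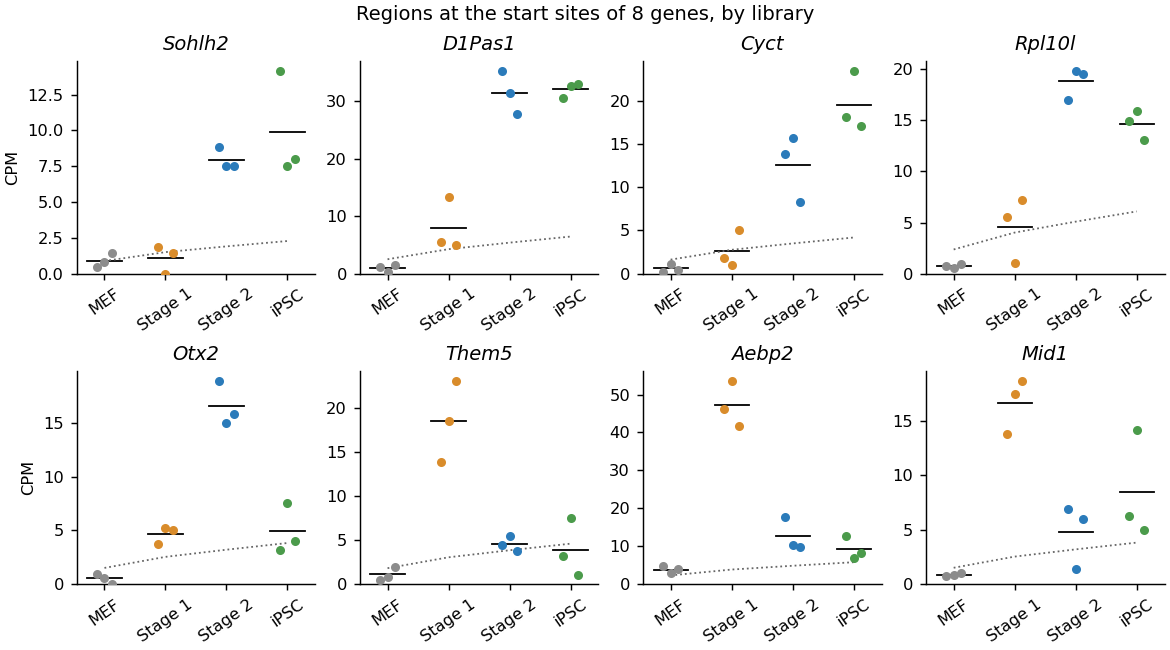
Level (CPM) of the region at an annotated start of 8 genes in every library of the 4 groups. Points are libraries, black lines are means of 3 and the dotted line is the expected background. Sohlh2, D1Pas1, Cyct and Rpl10l are low in Stage 1 and higher in Stage 2 and iPSC, Otx2 is high in Stage 2, and Them5, Aebp2 and Mid1 are high in Stage 1.

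The deposited stage lists, which were made from these same libraries and so are no independent test, sort the changes by where a region was listed. Of 4426 tested regions on the Stage 1 list alone, 1248 fell and 0 rose, with a median log2 change of -0.74. Of 3700 on the Stage 2 list alone 911 rose and 0 fell (median 0.73), and of 3007 on the Stage 2 and iPSC lists 1184 rose and 0 fell (median 0.92). Regions on the Stage 1, Stage 2 and iPSC lists moved both ways, with 585 rises and 441 fall among 6742, and regions on all 4 lists had 156 rises and 1127 falls among 12675 (median -0.16). Regions of the MEF list alone were seldom called, with 334 rises and 182 falls among 25945. Their median level was 3.39 CPM at Stage 1 and 3.86 CPM at Stage 2, under the median expected background of 3.52 and 4.45 CPM. By share of in-region reads, regions of the Stage 1 list alone took 5.86, 6.52 and 6.34% in the Stage 1 libraries and 3.84, 3.61 and 3.55% in the Stage 2 libraries. Regions of the Stage 2 and iPSC lists took 1.80, 2.03 and 2.06% and then 3.91, 3.79 and 3.74%. Neither share overlapped between the stages (two-sided exact permutation p = 0.1 for each), and the second was 4.11% on average in iPSC.

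**Figure D3:**
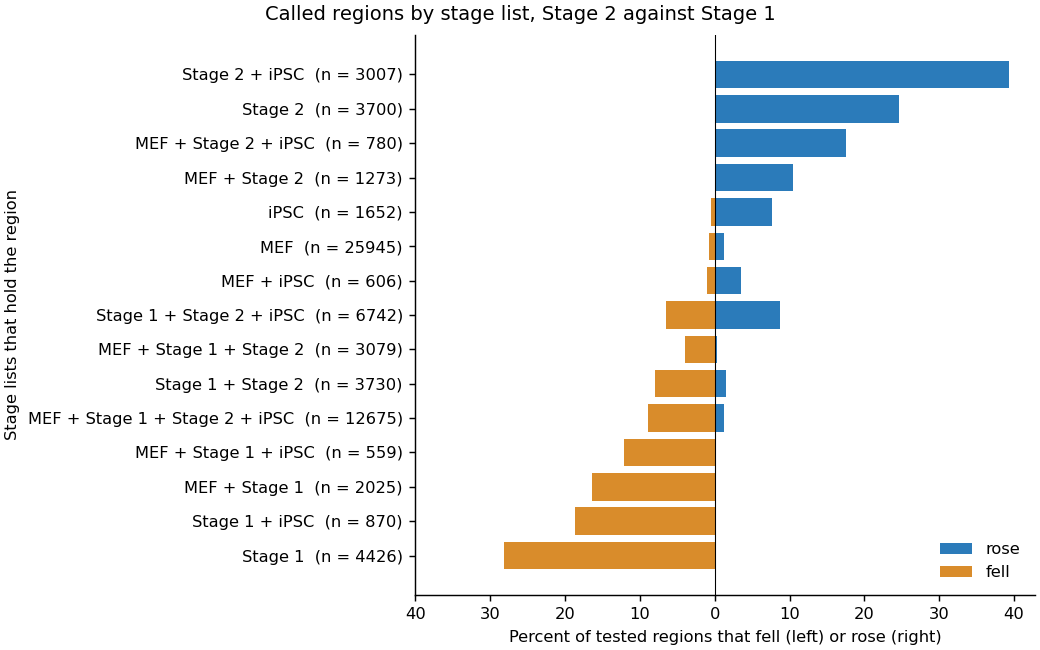
Bars give the percent of tested regions that rose (blue, right) or fell (orange, left) from Stage 1 to Stage 2, for each combination of deposited stage lists, with the number tested. Regions on the Stage 2 and iPSC lists have the highest share of rises (39.4%) and regions on the Stage 1 list alone the highest share of falls (28.2%).

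Among regions whose mean log2 CPM was 3 or more, those with the largest changes lay mostly between genes. The largest rise among them, at chr4:73517351-73518000, went from 1, 3 and 3 reads to 55, 45 and 42. That is 2.06 CPM ± 1.09 against 32.3 ± 2.04 (SD, n = 3 each), with 3.27 CPM expected from background at Stage 1, a log2 change of 3.95 ± 0.40 (SE; adjusted p = 1.51e-12). A region at chr2:96314851-96315500, within 10 kb of the synaptic adhesion gene Lrrc4c, went from 0, 3 and 2 reads to 43, 23 and 24 (3.75 ± 0.49). Another at chr2:45910851-45911600, on the Stage 2 list only, went from 5, 1 and 4 reads to 57, 34 and 31 (3.22 ± 0.40). All 3 were at or under background at Stage 1 and under 1 CPM in MEF. In iPSC they held 24.5, 8.43 and 7.65 CPM: the first did not pass the test against Stage 2 (iPSC against Stage 2, -0.38, adjusted p = 0.475), and the other two were lower than at Stage 2 (iPSC against Stage 2, -1.28, adjusted p = 0.0196, and iPSC against Stage 2, -1.82, adjusted p = 0.000315). A further region, at chr3:120879201-120880000, went from 9, 12 and 7 reads to 79, 68 and 71 (2.595, adjusted p = 9.46e-12). These regions and those of the next paragraph kept the call with each library left out and with all reads as library size.

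The fall with the smallest p of all regions was at chr3:106252101-106252950, between genes, with a start of the chitinase-like gene Chil4 as the nearest annotated one, 32622 bp away. It held 88, 89 and 117 reads in the Stage 1 libraries and 17, 15 and 12 in the Stage 2 libraries, 85.7 CPM ± 5.47 against 9.99 ± 0.866 (SD, n = 3 each), a log2 change of -3.08 ± 0.23 (SE; adjusted p = 5.61e-20). A region beside it, at chr3:106250901-106251550, went from 82, 87 and 121 reads to 26, 20 and 17 (-2.55 ± 0.22). Both were low in MEF (3.39 and 1.28 CPM) and in iPSC (8.79 and 11 CPM), so among the 4 groups the pair was high at Stage 1. Inside Npepl1, an aminopeptidase-like gene, chr2:174116651-174117550 went from 40, 46 and 77 reads to 8, 14 and 3 (-3.03 ± 0.29). Near the odorant receptor gene Olfr9, chr10:128980551-128981600 went from 79, 86 and 123 reads to 37, 25 and 10 (-2.35 ± 0.22) and was lower again in iPSC (iPSC against Stage 2, -1.64, adjusted p = 0.00806). At chr1:81643501-81644100 reads went from 26, 35 and 35 to 4, 5 and 5 (-3.10 ± 0.36).

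Pluripotency genes were examined first by their summed regions and then region by region. For each protein-coding gene the reads of all regions on it or within 10 kb were added up; such a sum is accessibility near the gene, not expression, and is scaled apart from single regions. By this measure 2781 of 17540 genes were called (15.9%), 1497 up (8.53%) and 1284 down (7.32%), with a median log2 change of 0.02. With all reads as library size 1255 of 17826 were called (7.04%), 62 up (0.348%) and 1193 down (6.69%), with a median of -0.37. The 21 gene lists were chosen with earlier results of these data known, so their counts beside all genes are descriptions and not tests. The lists share genes, with 532 tested members but 484 different genes, so the same gene can count in several lists. Of the pluripotency network, 9 of 35 rose and 2 fell, beside 8.53 and 7.32% of all genes, with a median log2 change of 0.24 (-0.14, 1 rise and 0 falls with all reads as library size). The risers were Sox2, Esrrb, Nr0b1, Zfp42, Dppa2, Dppa4, Dppa5a, Mybl2 and Gbx2, and Gdf3 and Tet2 fell. Esrrb, Zfp42, Dppa2, Dppa4, Dppa5a and Mybl2 kept the call with each library left out, and leaving out 1 gave 6 to 9 rises and 0 to 3 falls (fewest without Stage 1 replicate 3 or Stage 2 replicate 3). Sox2, Nr0b1, Zfp42, Dppa5a, Gdf3 and Gbx2 were not called in DESeq2 (adjusted p 0.0558 to 0.0902). Sox2, Nr0b1 and Gbx2 lost the call over regions within 1 kb (0.0743 to 0.906). Sox2, Nr0b1, Dppa2, Mybl2 and Gbx2 lost it over regions on the gene (0.0628 to 0.895). Of the list's 171 tested regions 21 rose (12.3%) and 6 fell (3.51%), beside 5.14 and 5.62% over all regions. The latter include the regions of the MEF list alone, 36.5% of those tested, which were seldom called. Over regions on the Stage 1 or Stage 2 list, fitted alone, 10.4% rose and 8.93% fell. Over all 21 gene lists, 117 different regions rose and 103 fell, and with all reads as library size 25 of these rises and 75 of these falls were called.

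Single sites opened at Pou5f1 and Sox2, core factors of the network. The sum of Pou5f1 was 90.4 CPM ± 7.02 against 103 ± 12.8 (0.17, adjusted p = 0.333), and it was -0.22 with all reads as library size. Its start-site region, at chr17:35505751-35506150, went from 6, 5 and 12 reads to 30, 26 and 19, 6.44 CPM ± 1.91 against 17 ± 2.39 (SD, n = 3 each), a log2 change of 1.35 ± 0.35 (SE; adjusted p = 0.00464). All Stage 2 libraries were higher, and with all reads as library size the change did not pass (1.05, adjusted p = 0.151). It held 1.27 CPM in MEF and 11.1 CPM in iPSC. The cells of both groups were sorted on a reporter of this gene, and reads from a reporter copy of its regulatory sequence, where one exists, cannot be told apart from those of the gene. A site at -3395 bp from the start of Sox2, the partner of the Pou5f1 product, went from 7, 3 and 3 reads to 28, 23 and 20 (2.08 ± 0.41, adjusted p = 0.000148), from 3.90 to 16.1 CPM, with 8.78 CPM in iPSC. For Klf4 and Myc, reprogramming factors, the gene sums were not called (0.29, adjusted p = 0.108, and 0.27, adjusted p = 0.102), and both were negative with all reads as library size (-0.11 and -0.12).

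Of the other genes of the pluripotency list, Dppa5a, Zfp42, Mybl2, Tdgf1 and the pair Dppa2 and Dppa4 had rising sites, and falling sites of further members follow. Dppa5a, an embryonic stem cell gene with a KH domain, had 3, of which the one at chr9:78368801-78369800 went from 14, 9 and 16 reads to 85, 52 and 51, 11.2 CPM ± 1.83 against 42.4 ± 9.66 (SD, n = 3 each), a log2 change of 1.91 ± 0.26 (SE; adjusted p = 4.43e-08). The others rose by 1.78 ± 0.40 and 2.37 ± 0.44, and in MEF the 3 held 0.978 to 2.21 CPM. In Zfp42 (Rex1), a zinc finger gene of naive cells, a site 909 bp after the start went from 8, 4 and 6 reads to 30, 24 and 21 (1.69 ± 0.38, adjusted p = 0.000927). The start-site region of Zfp42 was already open at Stage 1, at 34.2 CPM, and went from 28, 38 and 52 reads to 80, 87 and 58 (0.58 ± 0.20, adjusted p = 0.0455). This call was lost without Stage 1 replicate 1, 2 or 3 or Stage 2 replicate 1 or 2 (adjusted p 0.0708 to 0.283), with all reads as library size (0.731), without the filter on low counts (0.0781) and in DESeq2 (0.167). Mybl2, a regulator of cell cycle genes, opened 20316 bp after its start, from 9, 11 and 17 reads to 82, 69 and 48 (2.07 ± 0.26, adjusted p = 4.78e-09), and again 30366 bp after it (1.75 ± 0.39). At an end of a gene near Tdgf1, the Nodal co-receptor Cripto, reads went from 7, 9 and 9 to 35, 38 and 20 (1.53 ± 0.33), not called with all reads as library size (adjusted p = 0.0691). Near Dppa2 and Dppa4, neighbours that share a region, they went from 13, 13 and 17 to 75, 33 and 28 (1.29 ± 0.28), a call lost without Stage 2 replicate 1 (adjusted p = 0.0982) and with all reads as library size (0.104).

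Esrrb, an orphan nuclear receptor of the naive network, opened and closed at different sites of its locus. Its sum went from 214 CPM ± 19.5 to 296 ± 10.8 (0.47 ± 0.090, adjusted p = 0.000108; with all reads as library size 0.08, adjusted p = 0.855). A site 76907 bp after the start went from 29, 14 and 30 reads to 67, 63 and 46 (0.92 ± 0.24, adjusted p = 0.00444), a call lost without Stage 1 replicate 2 (adjusted p = 0.0748) and with all reads as library size (0.349). A site 33257 bp after the start had the opposite sign, from 10, 9 and 18 reads to 2, 9 and 7 (-1.37 ± 0.46, adjusted p = 0.0382), a call lost without Stage 1 replicate 1, 2 or 3 or Stage 2 replicate 1 or 3 (adjusted p 0.0614 to 0.28), without the filter on low counts (0.0584) and in DESeq2 (0.246). In Tet2, which encodes a 5-methylcytosine dioxygenase, a strong site inside the gene went from 122, 98 and 127 reads to 81, 59 and 50, 102 CPM ± 10.5 against 42.9 ± 7.07 (-1.23 ± 0.16, adjusted p = 2.18e-08), and held 1.90 CPM in MEF and 28.3 CPM in iPSC. The Tet2 site kept its call with each library left out and with all reads as library size.

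The stretch of chromosome 6 from Gdf3 to Slc2a3, which also holds Dppa3 and Nanog, held several falling regions and no called rise. It was singled out after its values were seen. Over 217 kb, 33 regions were tested; 7 fell (21.2%, beside 5.62% over all regions), 0 rose, and the median log2 change was -0.21. Of regions on the Stage 1 or Stage 2 list, fitted alone, 8.93% fell. The region at -4139 bp from the start of Nanog, a homeobox factor of the core network, held 139, 127 and 155 reads in the Stage 1 libraries and 172, 114 and 103 in the Stage 2 libraries, 124 CPM ± 10.4 against 87.8 ± 17.7 (SD, n = 3 each; -0.48 ± 0.15, adjusted p = 0.0248). Between Dppa3 and Nanog, chr6:122689351-122690550, on the MEF and Stage 1 lists, went from 38, 25 and 28 reads to 20, 11 and 18 (-1.24 ± 0.27, adjusted p = 0.000564). It was highest in MEF, at 63.5 CPM, with 27.0 at Stage 1, 11.2 at Stage 2 and 14.3 in iPSC. Near Slc2a3, a glucose transporter gene, chr6:122810551-122811700 went from 136, 151 and 179 reads to 154, 133 and 102, 137 CPM ± 16.6 against 88.1 ± 10.4 (-0.62 ± 0.15, adjusted p = 0.00195). Of the 7 falls these 2 kept the call with each library left out. The Nanog site lost it without Stage 1 replicate 1 or 2 or Stage 2 replicate 2 or 3 (adjusted p 0.0905 to 0.167), with all reads as library size (0.121), without the filter on low counts (0.0516) and in DESeq2 (0.144). The site in Gdf3, a growth factor of the TGF-beta family (-0.58 ± 0.17), lost it without Stage 1 replicate 3 (0.142) or Stage 2 replicate 3 (0.107), with all reads as library size (0.0807) and in DESeq2 (0.0872). That in Dppa3, a maternal and germ cell factor (-0.91 ± 0.31), lost it without Stage 1 replicate 1, 2 or 3 or Stage 2 replicate 1 or 3 (adjusted p 0.0561 to 0.2), with DESeq2's size factors (0.0521), without the filter (0.0641) and in DESeq2 (0.16). Of the other two falls, chr6:122770101-122771150 (-0.73 ± 0.20) lost its call without Stage 1 replicate 3 (0.054) or Stage 2 replicate 2 (0.0614) and in DESeq2 (0.063), and chr6:122772501-122773150 (-1.09 ± 0.32) lost it without Stage 1 replicate 3 or Stage 2 replicate 1 or 2 (adjusted p 0.0743 to 0.122) and in DESeq2 (0.129). The sums of Nanog (-0.17, adjusted p = 0.285) and Dppa3 (-0.27, adjusted p = 0.187) were not called.

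The 250 bases before the starts of Pou5f1 and Zfp42 are given because the Zfp42 start was open at Stage 1 and the Pou5f1 start opened between the stages. Capitals mark matches on either strand of the octamer ATGCAAAT, the ZEB E-box CAGGTG and the TEAD motif GGAATG in Zfp42, and of the GRHL motif AACNNGTT in Pou5f1. Of all windows, 1.75% hold the octamer, 20.3% the E-box, 14.6% the TEAD motif and 4.19% the GRHL motif.
Pou5f1 (chr17:35505782-35506031, plus strand): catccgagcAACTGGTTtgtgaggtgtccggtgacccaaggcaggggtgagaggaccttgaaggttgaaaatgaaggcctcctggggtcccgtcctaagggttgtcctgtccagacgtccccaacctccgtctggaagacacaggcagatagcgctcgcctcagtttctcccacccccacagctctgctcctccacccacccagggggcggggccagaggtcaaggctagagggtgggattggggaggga
Zfp42 (chr8:43307010-43307259, minus strand): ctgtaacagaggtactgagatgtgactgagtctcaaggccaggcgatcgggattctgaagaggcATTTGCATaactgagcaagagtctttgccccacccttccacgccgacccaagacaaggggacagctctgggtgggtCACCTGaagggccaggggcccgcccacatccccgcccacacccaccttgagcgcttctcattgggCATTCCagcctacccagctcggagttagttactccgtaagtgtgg

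Summed over 10 kb, regions of formative and primed epiblast genes had rises and no falls. This list, too, was chosen with earlier results of these data known. Of this list, 9 of 21 rose and 0 fell, beside 8.53 and 7.32% of all genes, with a median log2 change of 0.34 (-0.06, 1 rise and 0 falls with all reads as library size). Over regions on the gene 7 rose and 1 fell, and over regions on the Stage 1 or Stage 2 list 8 rose and 1 fell. The risers were Fgf5, Otx2, Sox3, Dnmt3a, Lef1, Zic2, Zic5, Lefty1 and Lefty2. Otx2, Sox3, Lef1, Zic2, Zic5 and Lefty1 kept the call with each library left out, and leaving out 1 gave 6 to 9 rises and 0 falls. Dnmt3a was not called in DESeq2 (adjusted p = 0.107). Lef1 and Lefty1 lost the call over regions within 1 kb (0.0951 to 0.455) and on the gene (0.445 to 0.747). Of the list's 93 tested regions 14 rose (15.1%) and 2 fell (2.15%), beside 5.14 and 5.62% over all regions. Over regions on the Stage 1 or Stage 2 list, fitted alone, 10.4% rose and 8.93% fell. Otx2, a homeobox factor of the change from naive to formative cells, opened in a region beside a start annotated inside the gene, over 1 kb from the gene's ends. Reads went from 4, 5 and 7 to 30, 22 and 21, that is 4.63 CPM ± 0.817 against 16.6 ± 2.04 (SD, n = 3 each). The log2 change was 1.82 ± 0.39 (SE, adjusted p = 0.000435). That region held 0.5 CPM in MEF and 4.89 CPM in iPSC (iPSC against Stage 2, -1.75, adjusted p = 0.00485), so of the 4 groups it was high at Stage 2. The bases before that annotated start are given for that reason, and none of the motifs searched was found in them.
Otx2 (chr14:48662735-48662984, minus strand): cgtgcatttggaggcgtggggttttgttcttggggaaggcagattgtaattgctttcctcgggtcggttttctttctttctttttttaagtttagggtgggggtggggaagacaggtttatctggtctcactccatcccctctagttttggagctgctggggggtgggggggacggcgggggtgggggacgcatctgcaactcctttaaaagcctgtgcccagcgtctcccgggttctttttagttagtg

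Other members of this group opened at single sites. Before Dnmt3a, which encodes a de novo DNA methyltransferase, a site at -1394 bp from the start went from 5, 9 and 5 reads to 49, 31 and 29 (2.14 ± 0.35, adjusted p = 4.28e-06), with 13.3 CPM in iPSC against 24.6 at Stage 2. Near Zic2 and Zic5, neighbouring zinc finger genes, chr14:122473951-122475400 went from 65, 44 and 66 reads to 181, 141 and 114 (0.96 ± 0.16, adjusted p = 9.39e-06). Near Lefty1, a Nodal antagonist, reads went from 15, 9 and 16 to 52, 46 and 39 (1.42 ± 0.27). Inside Fgf5, a growth factor of the epiblast, they went from 13, 16 and 27 to 81, 44 and 35 (1.16 ± 0.26), a call lost without Stage 2 replicate 1 (adjusted p = 0.0734). Near Sox3, an X-linked relative of Sox2, they went from 2, 7 and 1 to 14, 20 and 22 (2.11 ± 0.47), lost without Stage 1 replicate 3 (adjusted p = 0.0638). In all of these the Stage 2 libraries lay above the Stage 1 libraries. Scaled by all reads, the sites of Zic2 and Zic5 (adjusted p = 0.224), Lefty1 (0.0685) and Fgf5 (0.166) were not called.

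**Figure D4:**
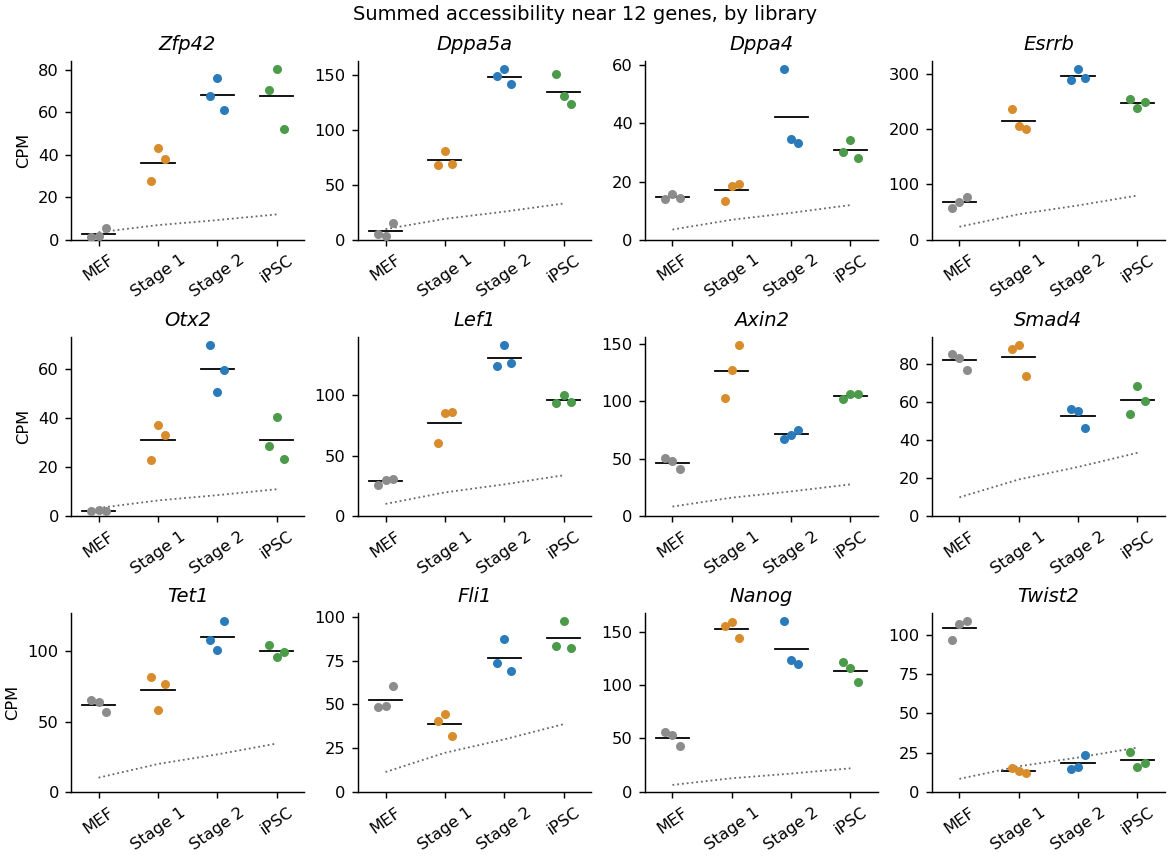
Accessibility summed over the regions of 12 genes (CPM), in every library of the 4 groups; points are libraries, black lines are means of 3 and the dotted line is the expected background. Zfp42, Dppa5a, Otx2 and Lef1 are higher in the Stage 2 than in the Stage 1 libraries, Axin2 and Smad4 are lower, and Twist2 lies near background in all groups but MEF.

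In the Wnt pathway stabilised beta-catenin acts through TCF and LEF factors, and Axin2 is both a target and an inhibitor of it. Of the Wnt list, 5 of 28 rose and 2 fell, beside 8.53 and 7.32% of all genes, with a median log2 change of 0.03 (-0.36, 0 rises and 2 falls with all reads as library size). Axin2, Lef1, Cdx1 and Notum kept the call with each library left out, and leaving out 1 gave 3 to 4 rises (fewest without Stage 1 replicate 3 or Stage 2 replicate 1, 2 or 3) and 1 to 3 falls (fewest without Stage 1 replicate 2 or Stage 2 replicate 2 or 3). Gsk3b, Sp5 and Fzd7 were not called in DESeq2 (adjusted p 0.0614 to 0.144). Lef1, Gsk3b, Cdx1, Notum and Fzd7 lost the call over regions within 1 kb (0.057 to 0.538) and on the gene (0.0623 to 0.529). A site at -7547 bp from the start of Lef1 went from 5, 9 and 17 reads to 71, 79 and 57, 8.71 CPM ± 3.85 against 47.2 ± 5.95 (SD, n = 3 each), a log2 change of 2.39 ± 0.28 (SE; adjusted p = 2.13e-10). It held 1.47 CPM in MEF and 21.1 CPM in iPSC (iPSC against Stage 2, -1.16, adjusted p = 0.0019). Axin2 lost accessibility at its start, from 67, 67 and 114 reads to 56, 58 and 55, 71 CPM ± 10.3 against 38.7 ± 3.15 (-0.89 ± 0.17, adjusted p = 0.000129). It also fell at -8949 bp from the start, from 27, 25 and 50 reads to 20, 13 and 19 (-1.3 ± 0.28), and 4752 bp after it, from 18, 23 and 29 reads to 12, 12 and 7 (-1.52 ± 0.33). Inside Gsk3b, the kinase that marks beta-catenin for decay, a site went from 50, 25 and 39 reads to 18, 13 and 11 (-1.79 ± 0.29, adjusted p = 4.32e-06), near background in MEF (0.593 CPM) and low in iPSC (5.58 CPM). These sites kept the call with each library left out and with all reads as library size, and their CPM did not overlap between the stages. A further Axin2 site, at -10299 bp from the start (-1.06 ± 0.33), lost its call without Stage 1 replicate 3 or Stage 2 replicate 1 or 2 (adjusted p 0.0621 to 0.246) and in DESeq2 (0.122).

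**Figure D5:**
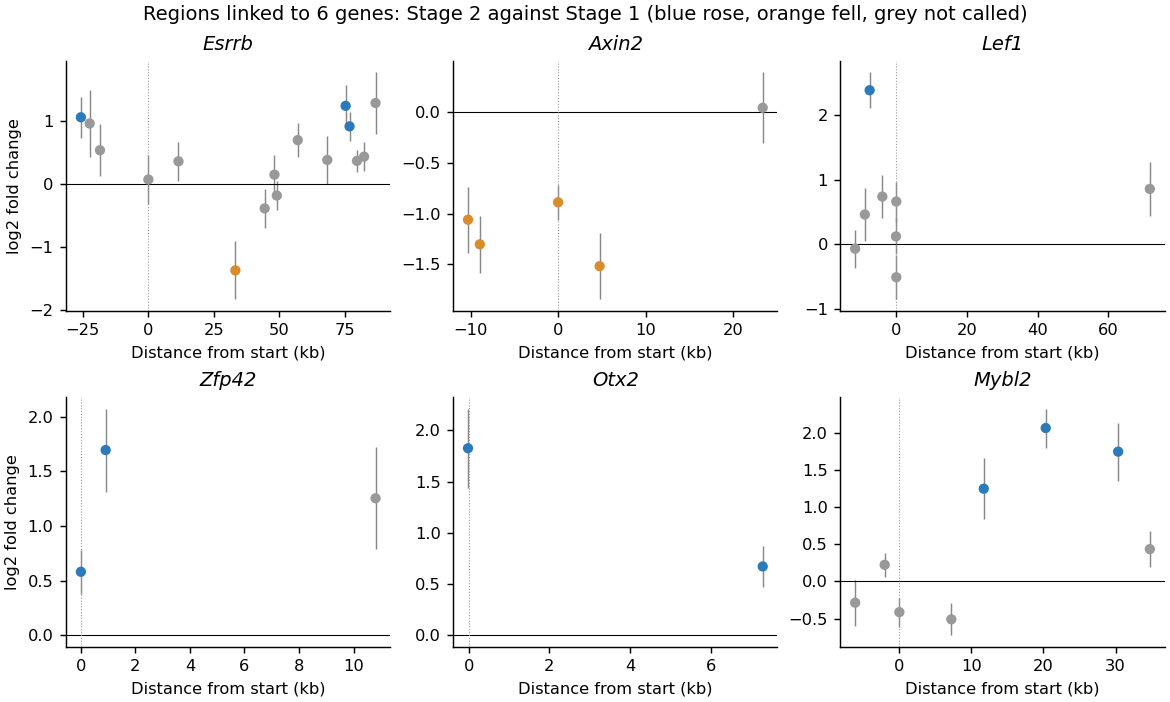
Log2 fold change of each tested region (Stage 2 over Stage 1, bars are SE) by its distance from the gene's start in kb, for 6 genes. Blue regions rose, orange regions fell and grey ones were not called; 4 of 5 regions of Axin2 fell, Lef1 rose at 1 site before its start, and Esrrb rose at 3 sites and fell at 1.

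Of the TGF-beta, BMP and Nodal list, 5 of 33 rose and 3 fell, beside 8.53 and 7.32% of all genes, with a median log2 change of 0.14 (-0.25, 0 rises and 3 falls with all reads as library size). The risers were the ligand gene Bmp4, the Nodal antagonists Lefty1 and Lefty2, the inhibitor Smad7 and the receptor gene Bmpr1a, and Smad4, Tgfbr3 and Id3 fell. Smad4 and Lefty1 kept the call with each library left out, and leaving out 1 gave 3 to 5 rises (fewest without Stage 1 replicate 2 or Stage 2 replicate 1) and 1 to 4 falls (fewest without Stage 2 replicate 2). Tgfbr3 and Bmp4 were not called in DESeq2 (adjusted p 0.0656 to 0.157). Smad7, Bmp4, Id3 and Lefty1 lost the call over regions within 1 kb (0.0509 to 0.542) and on the gene (0.0528 to 0.747). Inside Tgfbr3, which encodes the co-receptor betaglycan, a site went from 23, 35 and 33 reads to 9, 11 and 13 (-1.81 ± 0.31, adjusted p = 1.07e-05), to 7.65 CPM where 4.45 were expected from background. The region just before the start of Ski, a corepressor of Smad proteins, went from 59, 45 and 62 reads to 37, 36 and 40, 48.5 CPM ± 5.19 against 26 ± 3.61 (-0.90 ± 0.20, adjusted p = 0.000719). For Smad4, the common mediator, the sum went from 84.1 CPM ± 8.80 to 52.7 ± 5.69 (-0.65 ± 0.13, adjusted p = 0.000218). All 3 kept the call with each library left out and with all reads as library size.

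Of the FGF and ERK list, 3 of 27 rose and 2 fell, beside 8.53 and 7.32% of all genes, with a median log2 change of 0.08 (-0.31, 0 rises and 2 falls with all reads as library size). Fgfr2, Fgf17 and Spred1 kept the call with each library left out, and leaving out 1 gave 2 to 3 rises and 2 falls. Near the ligand gene Fgf17 a site went from 14, 10 and 24 reads to 52, 46 and 44 (1.22 ± 0.26, adjusted p = 0.000483). Feedback inhibitors of the pathway moved both ways: inside Il17rd (Sef) a site went from 7, 9 and 7 reads to 39, 24 and 35 (1.73 ± 0.34) and at Spry2 one went from 16, 17 and 17 reads to 55, 43 and 41 (1.1 ± 0.25). The start of Spred1 went from 129, 103 and 154 reads to 127, 101 and 86, 112 CPM ± 6.42 against 71.2 ± 7.86 (-0.65 ± 0.15, adjusted p = 0.00132). Inside the receptor gene Fgfr2 a site went from 29, 26 and 48 reads to 15, 11 and 11 (-1.81 ± 0.29, adjusted p = 2.06e-06). Scaled by all reads, the sites of Fgf17 (adjusted p = 0.147) and Spry2 (0.219) were not called. Of the LIF, JAK and STAT3 list, 3 of 17 rose and 0 fell (median 0.22; -0.16, 0 and 0 with all reads as library size), with 2 to 3 rises and 0 to 1 fall (most without Stage 1 replicate 1) leaving out 1 library. Lifr kept the call with each library left out. Inside Lifr, the receptor for the cytokine that sustains naive cells, reads went from 2, 3 and 2 to 15, 14 and 15 (2.26 ± 0.52, adjusted p = 0.00128), with 16.8 CPM in iPSC against 10.1 at Stage 2.

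Of the DNA methylation and Tet list, 4 of 17 rose and 1 fell (median 0.01; -0.38, 0 and 0 with all reads as library size), with 2 to 4 rises (fewest without Stage 1 replicate 2 or Stage 2 replicate 3) and 0 to 1 fall (fewest without Stage 1 replicate 3 or Stage 2 replicate 3) leaving out 1 library. Over all genes 8.53% rose and 7.32% fell. Dnmt1, Dnmt3a, Dnmt3l and Tet1 rose and Tet2 fell, and of these Dnmt3l and Tet1 kept the call with each library left out. The sum of Tet1, a dioxygenase of pluripotent cells, went from 72.2 CPM ± 12.2 to 110 ± 10.3 (0.59 ± 0.12, adjusted p = 0.000246). That of Dnmt3l, a cofactor of de novo methylation, went from 40.7 CPM ± 5.02 to 65.8 ± 8.45 (0.69 ± 0.15). Neither was called with all reads as library size (adjusted p = 0.616 and 0.464), and Dnmt3l was not called over regions within 1 kb (0.058) or on the gene (0.0869). Of the Polycomb, BAF and NuRD list, 2 of 31 rose and 1 fell (median 0.16; -0.22, 0 and 1 with all reads as library size), with 1 rise each time and 1 fall leaving out 1 library. Cbx7 and Mta1 kept the call with each library left out. Near Chd3, a NuRD helicase gene, a site went from 17, 19 and 22 reads to 7, 2 and 4 (-2.48 ± 0.43, adjusted p = 1.74e-05), to 2.93 CPM where 3.50 were expected from background. Inside Mta1, a NuRD subunit, one went from 61, 77 and 114 reads to 65, 48 and 38, 72.6 CPM ± 14.2 against 34.1 ± 6.27 (-1.08 ± 0.19, adjusted p = 1.93e-05). At a site linked to Cbx7, a Polycomb subunit, reads went from 5, 6 and 5 to 26, 16 and 27 (1.74 ± 0.39). These last 3 sites kept the call with each library left out and with all reads as library size.

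Of the glycolysis and pyruvate list, 7 of 23 rose and 1 fell, beside 8.53 and 7.32% of all genes, with a median log2 change of 0.22 (-0.17, 0 rises and 0 falls with all reads as library size). The risers were the glucose transporter gene Slc2a1 and Hk2, Pfkp, Pfkfb3, Gapdh, Ldha and Pdk1, and Pdha1, a subunit of pyruvate dehydrogenase, fell. Pfkp and Pdk1 kept the call with each library left out, and leaving out 1 gave 5 to 7 rises and 0 to 2 falls (fewest without Stage 1 replicate 2 or 3 or Stage 2 replicate 1 or 3, most without Stage 1 replicate 1). Pfkfb3 and Pdha1 were not called in DESeq2 (adjusted p 0.0767 to 0.116). Slc2a1, Gapdh, Pdk1 and Pdha1 lost the call over regions within 1 kb (0.0609 to 0.438). Slc2a1, Gapdh, Ldha, Pdk1 and Pdha1 lost it over regions on the gene (0.0648 to 0.972). Of the list's 125 tested regions 13 rose (10.4%) and 6 fell (4.8%), beside 5.14 and 5.62% over all regions. Over regions on the Stage 1 or Stage 2 list, fitted alone, 10.4% rose and 8.93% fell. A site within 10 kb of Gapdh went from 2, 2 and 2 reads to 17, 20 and 19 (2.83 ± 0.53, adjusted p = 5.53e-05). One linked to Ldha, lactate dehydrogenase A, went from 2, 2 and 3 reads to 14, 27 and 17 (2.66 ± 0.51). One at -3394 bp from the start of Ldhb, lactate dehydrogenase B, went from 13, 4 and 5 reads to 44, 32 and 34 (1.96 ± 0.32). The sites of Gapdh and Ldha were under background at Stage 1 (1.78 and 2.02 CPM), and all 3 kept the call with each library left out and with all reads as library size.

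Of the mesenchymal and fibroblast list, 7 of 46 rose and 5 fell, beside 8.53 and 7.32% of all genes, with a median log2 change of 0.06 (-0.33, 0 rises and 4 falls with all reads as library size). The 7 risers were Col3a1, Twist1, Prrx2, Zeb1, Fn1, Cdh2 and Mmp14. Of these, 3 were above 2 times their expected background at Stage 2. The falls were the transcription factor genes Snai1, Snai2, Tbx15 and Osr1, of which the Snai genes drive epithelial to mesenchymal transition, and Fbn1, a matrix protein gene. Col3a1, Twist1 and Snai2 kept the call with each library left out, and leaving out 1 gave 2 to 7 rises (fewest without Stage 1 replicate 3) and 2 to 5 falls (fewest without Stage 1 replicate 3 or Stage 2 replicate 1 or 2). Snai1, Cdh2, Mmp14 and Osr1 were not called in DESeq2 (adjusted p 0.0599 to 0.117). Col3a1, Fbn1, Tbx15 and Osr1 lost the call over regions within 1 kb (0.0617 to 0.926). Col3a1, Fbn1, Mmp14, Tbx15 and Osr1 lost it over regions on the gene (0.0684 to 0.922). Inside Snai1 a site went from 59, 44 and 63 reads to 33, 29 and 32, 48.4 CPM ± 5.20 against 21.5 ± 2.23 (-1.17 ± 0.23, adjusted p = 0.000109). Near Snai2 one went from 54, 58 and 69 reads to 53, 32 and 36 (-0.94 ± 0.20). Twist1, another such factor, opened at its start from 14, 15 and 17 reads to 44, 39 and 38 (1.04 ± 0.25, adjusted p = 0.0024), to 27.6 CPM against 48.4 in MEF. With all reads as library size this was not called (0.73, adjusted p = 0.281). Of the list's 226 tested regions 5 rose (2.21%) and 14 fell (6.19%), beside 5.14 and 5.62% over all regions. Over regions on the Stage 1 or Stage 2 list, fitted alone, 10.4% rose and 8.93% fell. Of the epithelial list, 3 of 33 rose and 1 fell (median 0.07; -0.33, 0 and 0 with all reads as library size), with 1 to 3 rises (fewest without Stage 1 replicate 1 or Stage 2 replicate 2) and 0 to 1 fall (fewest without Stage 2 replicate 1 or 2) leaving out 1 library. Elf3 kept the call with each library left out. The start of Spint1, a protease inhibitor of epithelia, went from 15, 23 and 19 reads to 56, 50 and 51 (1.10 ± 0.25, adjusted p = 0.00119; 0.23 with all reads as library size). Inside St14, the matriptase gene, a site went from 22, 20 and 26 reads to 11, 10 and 6 (-1.67 ± 0.34). The sums of Cdh1 and Epcam were not called (0.20, adjusted p = 0.217, and 0.21, adjusted p = 0.566), and were -0.19 and -0.17 with all reads as library size. Of AP-1 and other somatic factors, 3 of 32 rose and 0 fell (median 0.17; -0.22, 0 and 0 with all reads as library size), with 0 to 3 rises (fewest without Stage 2 replicate 2) and 0 falls leaving out 1 library. None of these 3 calls was kept with each library left out.

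Of the neural ectoderm list, 7 of 30 rose and 2 fell, beside 8.53 and 7.32% of all genes, with a median log2 change of 0.32 (-0.07, 0 rises and 2 falls with all reads as library size). Pax6, Olig1, Hes3 and Lhx2 kept the call with each library left out, and leaving out 1 gave 3 to 6 rises (fewest without Stage 1 replicate 3 or Stage 2 replicate 3) and 1 to 2 falls (fewest without Stage 1 replicate 3 or Stage 2 replicate 1 or 3). Pax3, Sox21, Olig3, Gbx2 and Dlx2 were not called in DESeq2 (adjusted p 0.0773 to 0.121). Gbx2 lost the call over regions within 1 kb (0.0743) and on the gene (0.184). Pax6, an eye and forebrain factor, opened 8638 bp after its start from 10, 4 and 12 reads to 52, 39 and 26 (1.81 ± 0.31, adjusted p = 1.35e-05). It also opened at -1413 bp from the start, from 14, 8 and 21 reads to 48, 43 and 37 (1.23 ± 0.27; adjusted p = 0.151 with all reads as library size). In iPSC these held 32.9 and 35.1 CPM. At Lhx2, a forebrain factor, reads went from 3, 1 and 4 to 23, 17 and 17 (2.45 ± 0.48). Near Hes3, a transcriptional repressor, sites fell (-0.87 ± 0.23 and -0.85 ± 0.18). Of the mesoderm and heart list 3 of 20 rose and 2 fell (median 0.16; -0.23, 0 and 1 with all reads as library size), with 1 to 3 rises (fewest without Stage 1 replicate 2 or Stage 2 replicate 2) and 1 to 2 falls (fewest without Stage 1 replicate 2 or 3 or Stage 2 replicate 1 or 3) leaving out 1 library. Gata4 and Meis2 kept the call with each library left out. Of definitive endoderm 4 of 17 rose and 2 fell (median 0.16; -0.23, 0 and 2 with all reads as library size), with 2 to 3 rises (fewest without Stage 1 replicate 1 or Stage 2 replicate 1 or 3) and 1 to 2 falls (fewest without Stage 1 replicate 3 or Stage 2 replicate 2) leaving out 1 library. Foxa1, Prox1 and Cdx1 kept the call with each library left out. Of primitive endoderm 4 of 20 rose and 0 fell (median 0.17; -0.22, 0 and 0 with all reads as library size), with 1 to 4 rises (fewest without Stage 2 replicate 2 or 3) and 0 falls leaving out 1 library. Gata4 kept the call with each library left out. Of trophectoderm 3 of 19 rose and 1 fell (median 0.07; -0.32, 0 and 1 with all reads as library size), with 1 to 3 rises (fewest without Stage 1 replicate 1) and 1 fall leaving out 1 library. Fgfr2, the fall, and Esrrb, which is also on the pluripotency list, kept the call with each library left out. Of blood and macrophage genes 2 of 17 rose and 0 fell (median 0.16; -0.23, 0 and 0 with all reads as library size), with 1 to 2 rises (fewest without Stage 1 replicate 1 or Stage 2 replicate 2 or 3) and 0 to 1 fall (most without Stage 1 replicate 1) leaving out 1 library. Lmo2 kept the call with each library left out. Of endothelial genes 4 of 16 rose and 1 fell (median 0.07; -0.32, 0 and 1 with all reads as library size), with 2 to 3 rises (fewest without Stage 1 replicate 3 or Stage 2 replicate 2) and 0 to 1 fall (fewest without Stage 1 replicate 3 or Stage 2 replicate 1) leaving out 1 library. Fli1 kept the call with each library left out. Of imprinted genes 2 of 26 rose and 0 fell (median 0.03; -0.35, 0 and 0 with all reads as library size), with 0 to 3 rises (fewest without Stage 2 replicate 3) and 0 to 1 fall (most without Stage 2 replicate 2) leaving out 1 library. None of these 2 calls was kept with each library left out.

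Single sites of lineage genes changed in both directions. Inside Fli1, an ETS factor of blood and vessels, reads went from 17, 8 and 12 to 62, 59 and 40, 10.9 CPM ± 4.18 against 36.5 ± 5.56 (1.76 ± 0.28, adjusted p = 1.51e-06), with 33.4 CPM in iPSC and 1.07 in MEF. Inside Kdr, a VEGF receptor gene, they went from 4, 1 and 1 to 22, 15 and 12 (2.63 ± 0.54). Inside Prox1, a factor of liver and lymphatic vessels, they went from 11, 14 and 34 to 5, 7 and 3 (-2.29 ± 0.41). Inside Lamb1, a laminin gene, they went from 19, 25 and 25 to 4, 6 and 8 (-2.27 ± 0.37), to 4.21 CPM where 3.81 were expected from background. The Prox1 and Lamb1 sites were also low in MEF (1.41 and 0.976 CPM) and in iPSC (4.02 and 4.21 CPM). Among imprinted loci, sites at Mkrn3 (-1.82 ± 0.36), Dio3 (-1.31 ± 0.33) and Grb10 (-1.21 ± 0.24) fell, and one shared by Cdkn1c and Slc22a18 went from 0, 3 and 7 reads to 19, 18 and 18 (2.09 ± 0.48). These sites kept the call with each library left out and with all reads as library size.

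Of the germline list, 4 of 24 rose and 0 fell, beside 8.53 and 7.32% of all genes, with a median log2 change of 0.00 (-0.39, 0 rises and 0 falls with all reads as library size). Rpl10l kept the call with each library left out, and leaving out 1 gave 1 to 4 rises (fewest without Stage 2 replicate 3) and 0 falls. Sycp1, Sycp3 and Dmrt1 were not called in DESeq2 (adjusted p 0.0583 to 0.139). Near the start of Sycp3, which encodes a synaptonemal complex protein, reads went from 2, 3 and 6 to 23, 25 and 18 (2.21 ± 0.42, adjusted p = 8.15e-05), with 19.6 CPM in iPSC and 1.16 in MEF. Of the list's 66 tested regions 5 rose (7.58%) and 7 fell (10.6%), beside 5.14 and 5.62% over all regions. Over regions on the Stage 1 or Stage 2 list, fitted alone, 10.4% rose and 8.93% fell. A site 30298 bp from the start of Prdm1, which acts in primordial germ cells and in other lineages, went from 39, 36 and 39 reads to 27, 21 and 16 (-1.19 ± 0.26). One linked to Tdrd12, a piRNA pathway gene, went from 40, 19 and 41 reads to 22, 13 and 17 (-1.28 ± 0.28).

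Among the genes named for the largest changes of sums, Olfr663 went from 44.2 CPM ± 3.88 to 8.62 ± 2.77 (-2.31 ± 0.24) and Olfr9 from 69.3 CPM ± 9.96 to 13.9 ± 6.71 (-2.27 ± 0.22), both odorant receptor genes. The vomeronasal receptor gene Vmn2r22 went from 65.2 CPM ± 2.53 to 16.2 ± 1.17 (-2.0 ± 0.19). Another, Vmn2r90, went the other way, from 7.56 CPM ± 1.20 to 33.4 ± 1.62 (2.11 ± 0.26), with 39.9 CPM in iPSC. Cfhr3, of the complement factor H family, went from 11.4 CPM ± 4.06 to 40.3 ± 7.79 (1.87 ± 0.23), from near its background of 9.16 CPM. Receptor genes of these families can have close copies, among which reads may be split, and a sum within 10 kb can rest on 1 site: Olfr9 has 1 tested region, the falling one given above.

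The genes with the most called regions were named by rule, and their counts stand beside 5.14% rises and 5.62% falls over all regions. Over regions on the Stage 1 or Stage 2 list, fitted alone, 10.4% rose and 8.93% fell. In Etl4, 11 of 44 tested regions rose and 1 fell, and its sum went from 466 CPM ± 23.6 to 682 ± 12.3 (0.55 ± 0.077; 0.17, adjusted p = 0.662 with all reads as library size). At Upp1, uridine phosphorylase, 4 of 6 tested regions rose (0.69 ± 0.11; 0.30, adjusted p = 0.435 with all reads as library size). In Auts2, a gene linked to neurodevelopment, 13 of 41 fell and 4 rose, with a sum of 567 CPM ± 59.3 against 424 ± 3.22 (-0.42 ± 0.079), and in Macrod2 11 of 39 fell (-0.41 ± 0.083).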

How the data were processed

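Accessibility was measured by ATAC-seq in 12 mouse libraries. The files deposited by the authors hold raw read counts per region for each library, 115000 regions in all, and 1 list of regions per stage; counts of reads outside the regions stand in rows of their own, which stayed out of the tests. The submitters' processing notes name build mm10, HTSeq 0.5.4p3, DESeq2 1.12.4, SAMtools 0.1.19, Bowtie2 2.2.6 and Picard 2.6.0, with no role for each. The peak caller and the treatment of reads with several matches, on which counts near gene copies depend, are not given in the sources used here.

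The filter of edgeR was set to a minimum count of 10 and a minimum total of 15 and applied over the 4 groups. A region could therefore pass through any group, MEF included. Regions that passed were tested with edgeR 4.0.16 (R 4.3.3): robust quasi-likelihood, TMM scaling, 1 model of the 4 groups, Stage 2 minus Stage 1, with Benjamini-Hochberg adjusted p below 0.05 as a call. Every adjusted p in the text is from this test unless DESeq2 1.42.0 is named. The same was done for counts summed per protein-coding gene of the RefSeq table (GRCm38.p6, 10 kb). Tested on simulated data, the fit returned the median fold changes put in, but called fewer than all of the 2-fold changes, with 2-fold falls of regions missed most often. Depth is given with the results. The libraries of each group differed by more than sampling noise, and none was counted as a repeat. The excess was small at both stages, with a chi-square per degree of freedom of 1.02 to 1.23 at Stage 1 and 1.03 to 1.20 at Stage 2. It does not show that the libraries came from separate cultures or animals.

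Regions named by rule had the largest changes, or the smallest p, in either direction, without overlap between the stages. Genes named by rule were the largest changes of each list, a set of stage markers, the largest changes of all genes with at least 20 CPM in the higher group, and those with the most called regions; further sites of list genes and start sites were chosen after their values were seen. The members and the 21 lists were chosen with earlier results of these data known. Promoter windows were searched on both strands for 16 motifs. Of these, 7 are spelled where the results use them, the octamer and those of KLF, AP-1, TEAD, GRHL, OTX and ZEB factors. The other motifs were TCAAGGTCA for ESRRB, AACAATGG for SOX proteins, CAGCAGG for ZIC proteins, CTTTGAA for TCF and LEF proteins, TGTTTAC for forkhead proteins, TGTGGTT for RUNX proteins, AGATAAG for proteins of the GATA family, and by name the CTCF motif and the POU and SOX composite; matches of different motifs could overlap. Some items, among them 1 of the 20 regions named by rule, are not described here. The alternatives were other size factors, all reads as library size, no filter, only the 6 libraries, a replicate block, other links of regions to genes, DESeq2 and leaving out each library.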

Additional observations from a re-analysis of the deposited data

How the results depend on the processing

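The library size, the test and single libraries moved the counts of calls. With all reads as library size, 4614 regions were called, 834 up and 3780 down, and 1255 genes, 62 up and 1193 down, so the share of rises was 18.1 in place of 47.8% for regions and 4.94 in place of 53.8% for genes; that setting also tested more regions, 99151. DESeq2 called 3275 regions (1718 up, 1557 down) and 1637 genes (824 up, 813 down). Leaving out 1 library gave 4037 to 5718 regions (1890 to 2549 up, 2147 to 3270 down) and 1634 to 2635 genes (810 to 1270 up, 824 to 1459 down); the lowest total of each came without Stage 1 replicate 3. Among the genes named by rule, 7 log2 changes of sums turned negative with all reads as library size, which moved the median of all genes from 0.02 to -0.37: Pou5f1 -0.22, Klf4 -0.11, Myc -0.12, Cdh1 -0.19, Epcam -0.17, Col1a1 -0.080 and Sntg1 -0.057. The Stage 2 minus Stage 1 difference in read share, in percentage points, changed from 0.0413 to -0.0303 for the X chromosome (-0.00637 to 0.0727 leaving out 1 library), from 0.0557 to -0.00458 for the MEF and iPSC lists and from 0.619 to -0.168 for the Stage 1, Stage 2 and iPSC lists. For the MEF list it went from 2.75 to -0.131, and to -3.65 with the expected background subtracted. The cause was not tested. Of 62 called genes named by rule, 43 kept the call with each library left out, as did 99 of 258 called regions that were listed for the genes and start sites. At a median of 4 to 7 reads per region in these libraries, small changes of weak regions were not detectable.

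Same-numbered libraries of the stages had correlations of deviations of -0.0211, 0.000125 and -0.0144, and differently numbered ones of -0.0078 to 0.0206. At a median of 4 to 7 reads per region such deviations are largely sampling noise. These values therefore cannot show whether the replicate numbers pair the samples. With a replicate block in the 6 libraries, 8131 of 44779 regions (18.2%) and 2477 of 17038 genes (14.5%) were called. Without the block, the same 6 libraries gave 9053 regions (20.2%) and 3063 genes (18%), so the block lowered the calls. Fewer regions were tested there than in the main fit.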

Other observations

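Called regions that were neighbours mostly moved the same way. Among 639 adjacent pairs of called regions within 10 kb of each other, 261 both rose, 311 both fell and 67 went opposite ways, so 89.5% shared a direction. Within 100 kb the share was 75.8% of 2971 pairs, with 944 both rising, 1307 both falling and 720 opposite. Neighbouring regions of a library share local copy number, and no expected share was computed. These shares are therefore a description, and their cause was not tested.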
